A study of Mus musculus with 9 samples.

Results

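Ligated mice given cannabidiol (CBD) were compared with sham-operated mice given solvent, gene by gene, in hippocampal tissue. The comparison takes the 3 CBD libraries and the 3 sham libraries of a series of 9 libraries, as named by the sample labels, and covers all genes of the table. All mice carried the C57BL/6J background. In sham mice the L5 spinal nerve, the spinal nerve of the fifth lumbar level, was found but left untied, and solvent followed. In CBD mice that nerve was ligated, a surgical model of neuropathic pain, and cannabidiol was then given by intraperitoneal injection at 5 mg/kg for 15 days. The remaining 3 libraries came from ligated mice given solvent (SNL). They entered the fit to steady the estimate of spread, and their values are quoted beside the members, with the reminder that both contrasts use the same sham libraries. CBD and sham differ in the surgery and in the drug at once, so in this contrast the 2 cannot be told apart, and no group of unligated mice given cannabidiol was among the libraries used here. Age and sex are not in the labels. Nor do they state that each library is its own animal, and p-values therefore measure only how these libraries spread, which may be technical.

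The hippocampus is the brain region of episodic and spatial memory, built from dentate granule cells, CA3 and CA1 pyramidal cells, interneurons and glia. It carries much receptor for glucocorticoids, the adrenal stress hormones, and is tied to mood and to the emotional side of lasting pain. Cannabidiol is a cannabis compound that does not intoxicate. It binds the cannabinoid receptor CB1 weakly, and many other receptors, channels and transporters have been proposed as its targets. Genes were grouped by such roles into 42 lists, 25 of pathways and 17 of cell types or neighbouring tissues. The lists were chosen with earlier results of these data known, so their counts describe the members and give no independent support.

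The expected counts of the 6 libraries summed to between 17649909 and 20470546. Every pair of replicates differed by more than sampling noise. CBD 2 and CBD 3 were nearest to each other, with a chi-square per gene of 6.44, against 33.5 and 43.1 for CBD 1 with each of them. The sham pairs ran from 22.9 to 32.1 and the SNL pairs from 17.8 to 30.2. CBD 1 therefore stood apart from the other CBD libraries, though its 33.5 with CBD 2 was near the widest sham pair. CBD 1 also held peptide transcripts of the hypothalamus, which lies outside the labelled tissue. Pmch, the precursor of melanin-concentrating hormone, stood at 146, 0.103 and 0.232 CPM in CBD 1, 2 and 3 and at 0.357, 0.101 and 0.765 CPM in the sham libraries. It stood at 200, 43.9 and 0.797 CPM in SNL 1, 2 and 3, so CBD 1 was not the only library of the series to hold it. Avp, the vasopressin precursor, stood at 80.5, 0.516 and 0.463 CPM in the CBD libraries and at 0.255, 0.303 and 0.05098 CPM in sham. The summed level of 17 hypothalamus markers was 1292, 287 and 227 CPM in CBD 1, 2 and 3 and 313, 217 and 403 CPM in the sham libraries. For interferon-induced genes, mitochondrial transcripts and several near on or off features CBD 1 lay with the sham libraries and not with CBD 2 and CBD 3. Results that rest on CBD 1 are given with and without it. Markers of the labelled tissue were present in every library, and those of dentate granule cells, a cell type of the hippocampus, summed to 874, 1166 and 752 CPM in the sham libraries and to 606, 816 and 975 CPM in the CBD libraries. In bulk tissue, fewer cells of a type and less RNA per cell cannot be told apart.

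No gene passed in this comparison. edgeR's quasi-likelihood test called 0 of 17967 genes at a Benjamini-Hochberg adjusted p under 0.05 (0.0% higher and 0.0% lower). At an unadjusted p under 0.05 it took 2925 genes (16.3%), of which 1331 (7.41%) were higher and 1594 (8.87%) lower in CBD. The genes divided about evenly in direction, 50.1% higher and 49.9% lower, and their median log2 fold change was 0.00074. All 3 CBD libraries lay above all 3 sham libraries for 1909 genes (10.6%) and below them for 1988 (11.1%). The other tools called more. DESeq2's Wald test called 372 of the 11945 genes it gave an adjusted p (3.11%), 111 higher (0.929%) and 261 lower (2.19%), and limma voom with sample weights called 1051 of 17967 (1.92% higher, 3.93% lower). Without CBD 1 edgeR called 17 genes (0.0109% higher, 0.0816% lower) and took 7.81% of genes higher and 10.7% lower at an unadjusted p under 0.05, and DESeq2 called 730 of 12440 (2% higher, 3.87% lower). Because the main test called nothing, the genes below are described as higher or lower with their values, and a call is always credited to the tool that made it. The plot of fold change against p shows the DESeq2 calls on both flanks of an even cloud, with more of them on the lower side.

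**Figure D1:**
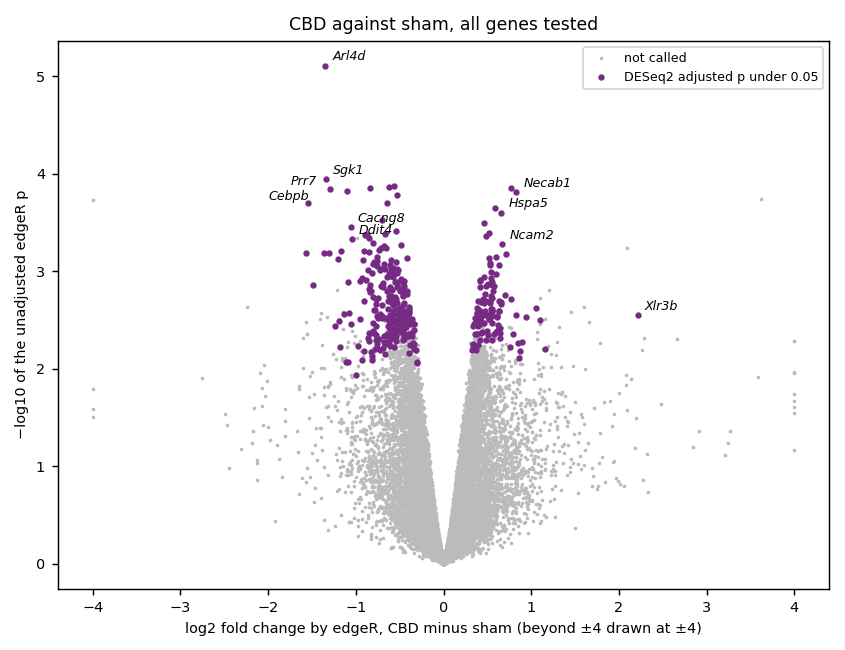
Each point is 1 of the 17967 genes tested, with the log2 fold change of CBD over sham on the x axis (values past 4 in size drawn at the edge) and the -log10 of edgeR's unadjusted p on the y axis. Purple points are the 372 genes that DESeq2 called, 111 to the right and 261 to the left, and Arl4d has the smallest p.

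Fold changes leaned on base composition. Across the 17642 genes with a known transcript (98.2% of those tested), the log2 fold change correlated with transcript GC content at a Spearman rho of -0.564, a description across genes that share the same 6 libraries. With the genes divided into 4 equal bins by GC content, the poorest bin (median 41.5%) had a median log2 fold change of 0.22 and the richest (median 57.1%) one of -0.25. Offsets that take out the trend with GC content and length in each library brought the medians of the bins to between -0.0112 and 0.0017. Under these offsets 1343 genes had an unadjusted p under 0.05, 536 higher (2.98%) and 807 lower (4.49%). The part of the GC trend in each gene's change was not tested, and the plot of all 42 lists gives each list's median under the offsets. The plot of fold change by GC content shows this slope and its loss under the offsets.

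**Figure D2:**
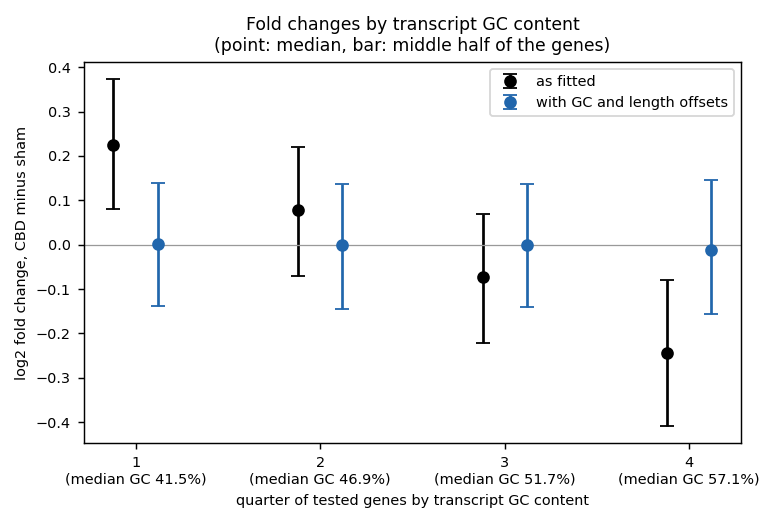
The tested genes are divided into 4 equal bins by transcript GC content (x axis, median in brackets), and the y axis is the log2 fold change of CBD over sham, with the median as a point and the interquartile range as a bar. As fitted, the medians run from 0.22 down to -0.25, and with the offsets all 4 lie between -0.0112 and 0.0017.

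Several genes with small p-values were lower in CBD, Arl4d with the smallest of all. Arl4d stood at 20.9, 15.97 and 19.3 CPM in the sham libraries and at 8.01, 6.61 and 7.41 CPM in the CBD libraries. Arl4d (ENSMUSG00000034936) encodes a small GTPase of the ADP-ribosylation factor family, and its CBD libraries lay far below all sham libraries, 2.55-fold lower by the fit (log2 fold change -1.35, SE 0.16). Its adjusted p was 0.139 by edgeR's quasi-likelihood test and 1.85e-08 by DESeq2. Cebpb stood at 11.7, 14.2 and 8.004 CPM in the sham libraries and at 4.11, 2.84 and 4.69 CPM in the CBD libraries. Cebpb, a basic leucine zipper transcription factor of inflammation and memory, was lower in every CBD library than in any sham library (log2 fold change -1.54, SE 0.28). Prr7 stood at 21.7, 21.9 and 12.8 CPM in the sham libraries and at 8.28, 7.38 and 7.41 CPM in the CBD libraries. For Prr7, a membrane protein of the synapse, sham 3 lay below the other sham libraries and still above all CBD libraries (log2 fold change -1.29, SE 0.22). Lingo3 stood at 41.8, 45.7 and 28.7 CPM in the sham libraries and at 16.7, 19.8 and 17.7 CPM in the CBD libraries. Lingo3, a leucine-rich repeat membrane protein, likewise had separate groups (log2 fold change -1.10, SE 0.19). Cbfa2t3 stood at 36.1, 30.7 and 24.4 CPM in the sham libraries and at 15.6, 17.3 and 17.95 CPM in the CBD libraries, and the transcriptional corepressor it encodes had separate groups (log2 fold change -0.84, SE 0.14).

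Smaller but tight differences were found in 4 further genes. Bckdha stood at 42.2, 41.6 and 39.8 CPM in the sham libraries and at 30.05, 26.4 and 24.1 CPM in the CBD libraries. Bckdha encodes a subunit of the enzyme complex that breaks down branched-chain amino acids, and its groups were well apart (log2 fold change -0.62, SE 0.11). Twf2 stood at 29.9, 28.6 and 27.2 CPM in the sham libraries and at 19.3, 19.9 and 18.7 CPM in the CBD libraries. Twf2 encodes twinfilin, an actin-binding protein, with little spread inside either group (log2 fold change -0.57, SE 0.10). Syt3 stood at 72.3, 66.7 and 62.8 CPM in the sham libraries and at 47.05, 48.7 and 43.8 CPM in the CBD libraries. Syt3 is a synaptotagmin, one of the calcium sensors of membrane fusion (log2 fold change -0.53, SE 0.093). Slc35b2 stood at 27.4, 29.02 and 24.4 CPM in the sham libraries and at 17.9, 17.9 and 16.04 CPM in the CBD libraries. Slc35b2 carries the sulfate donor into the Golgi (log2 fold change -0.64, SE 0.11). Of these genes, Slc35b2 and Bckdha were little lower in SNL against the same sham libraries (-0.071 and -0.12), while Arl4d and Lingo3 stood in SNL at 6.303, 8.41 and 7.49 and at 13.7, 20.1 and 17.2 CPM, log2 fold changes of -1.34 and -1.19. The largest drops among the DESeq2 calls were those of Rn18s-rs5, a ribosomal RNA-like sequence, Cebpb, Rprml, Egr4 and Arl4d. Rn18s-rs5 stood at 2418, 2354 and 1142 CPM in the sham libraries and at 901, 532 and 564 CPM in the CBD libraries, with separate groups. Messenger RNA libraries are meant to leave such transcripts out, and the part of library making in this value was not tested. Rprml stood at 32.9, 40.8 and 18.5 CPM in the sham libraries and at 9.096, 12.95 and 10.7 CPM in the CBD libraries (log2 fold change -1.49, SE 0.34).

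**Figure D3:**
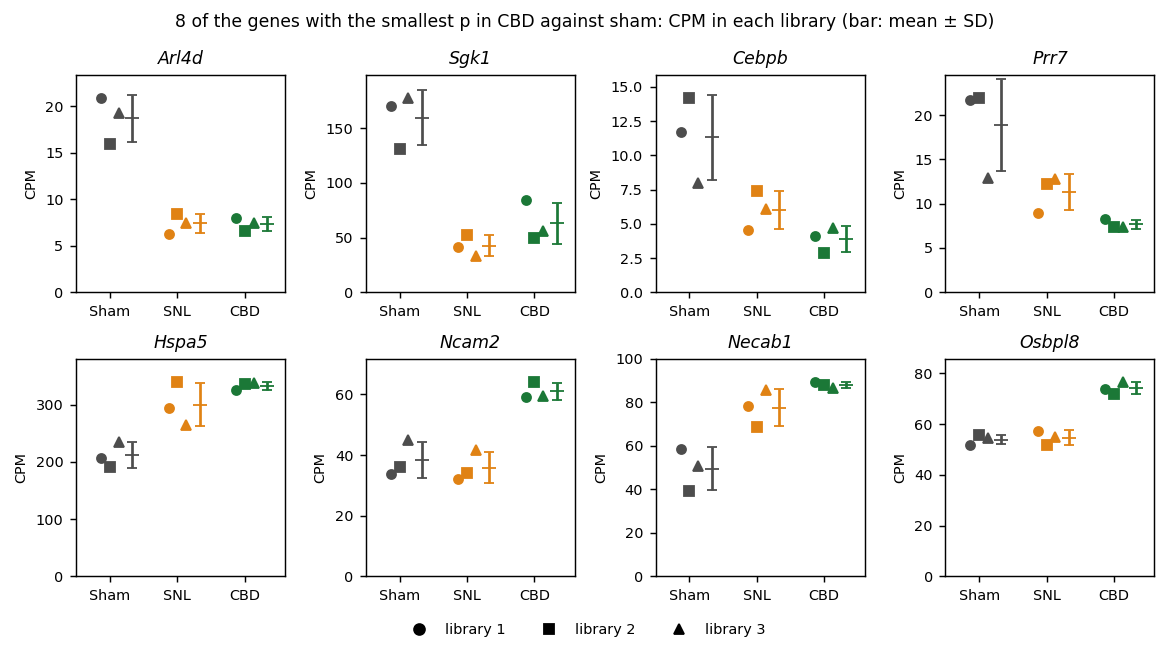
CPM in each library (y axis, from 0) by group (x axis) for 8 genes with small p, with marker shape for the library number and the bar for mean and SD of 3 libraries. The CBD libraries of Arl4d sit between 6.61 and 8.01 CPM under sham libraries of 16.0 to 20.9, and those of Osbpl8 sit between 71.9 and 76.7 CPM above sham libraries of 51.9 to 55.6.

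The genes with the smallest p on the higher side differed less in size. Kantr stood at 18.8, 22.1 and 25.5 CPM in the sham libraries and at 37.4, 36.7 and 38.7 CPM in the CBD libraries. Kantr is a long noncoding RNA, and its 3 CBD libraries lay together above sham (log2 fold change 0.76, SE 0.13). Necab1 stood at 58.7, 39.3 and 50.6 CPM in the sham libraries and at 89.4, 87.8 and 86.7 CPM in the CBD libraries. Necab1, a calcium-binding protein of neurons, spread among the sham libraries and hardly among the CBD libraries (log2 fold change 0.83, SE 0.14). Osbpl8 stood at 51.9, 55.6 and 54.4 CPM in the sham libraries and at 73.7, 71.9 and 76.7 CPM in the CBD libraries. Osbpl8 moves lipids between the endoplasmic reticulum and the plasma membrane, and both groups were tight (log2 fold change 0.46, SE 0.087). Ncam2 stood at 33.9, 36.1 and 45.02 CPM in the sham libraries and at 59.2, 64.1 and 59.7 CPM in the CBD libraries. Ncam2, a neural cell adhesion molecule, stood at 31.98, 33.97 and 41.5 CPM in SNL, no higher than in sham, with a log2 fold change of 0.67 (SE 0.14) in CBD and -0.10 in SNL over the same sham libraries; CBD was not tested against SNL. Shoc2 stood at 35.8, 35.4 and 40.7 CPM in the sham libraries and at 51.2, 53.4 and 55.9 CPM in the CBD libraries. Shoc2 is a scaffold of Ras signalling (log2 fold change 0.52, SE 0.10).

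Usp53, Klf6, Cntn3, Ddx3y and the chaperone gene Hspa5, described further on, completed the 10 higher genes with the smallest p. Usp53 stood at 19.9, 20.9 and 20.95 CPM in the sham libraries and at 27.7, 31.9 and 33.4 CPM in the CBD libraries (log2 fold change 0.59, SE 0.11). Klf6 stood at 23.9, 23.001 and 25.2 CPM in the sham libraries and at 33.2, 31.995 and 36.02 CPM in the CBD libraries. Klf6 is a zinc finger transcription factor, and its SNL libraries, at 36.2, 33.9 and 34.1 CPM, lay as high as its CBD libraries (log2 fold change 0.49, SE 0.10). Cntn3 stood at 14.9, 14.8 and 15.7 CPM in the sham libraries and at 21.01, 26.9 and 20.6 CPM in the CBD libraries, a contactin of neuronal contacts (log2 fold change 0.59, SE 0.13). Ddx3y stood at 33.9, 38.5 and 48.9 CPM in the sham libraries and at 58.6, 66.003 and 74.6 CPM in the CBD libraries. Ddx3y is an RNA helicase of the Y chromosome with a close copy on the X chromosome, so its reads may be shared between them (log2 fold change 0.72, SE 0.15). All 10 had an adjusted p of 0.213 by edgeR's quasi-likelihood test. The largest rises among the DESeq2 calls were those of Xlr3b, mt-Atp6, Vwc2l, Ttc39aos1 and mt-Nd6. Xlr3b stood at 3.26, 0.657 and 2.702 CPM in the sham libraries and at 10.4, 12.1 and 8.28 CPM in the CBD libraries. Xlr3b belongs to an X-linked family of near-identical copies and is uncertain for that reason (log2 fold change 2.21, SE 0.57, DESeq2 adjusted p = 0.0449). Vwc2l stood at 6.12, 4.398 and 9.84 CPM in the sham libraries and at 17.5, 15.998 and 9.96 CPM in the CBD libraries (log2 fold change 1.10, SE 0.29, DESeq2 adjusted p = 0.0202). Ttc39aos1 stood at 6.48, 4.04 and 8.51 CPM in the sham libraries and at 13.7, 11.1 and 11.8 CPM in the CBD libraries (log2 fold change 0.94, SE 0.24), and since the sources used here do not say that counting followed strand, this antisense RNA and the gene it overlaps cannot be told apart.

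Genes that glucocorticoids switch on were lower in CBD. Of 24 members tested, 3 were higher and 21 lower, and their median log2 fold change was -0.60, beside 0.00074 over all genes. 16 members had an unadjusted edgeR p under 0.05 on the lower side, where 8.87% of all genes did, and 0 on the higher side. Arl4d, the gene with the smallest p of all, is a member, and the list was chosen with earlier results of these data known. In 13 members all CBD libraries lay below all sham libraries (11.1% of all genes), and DESeq2 called 9 lower (2.19% of the genes it tested) and 0 higher (0.929%). Sgk1 stood at 170.0, 131 and 178 CPM in the sham libraries and at 84.2, 49.1 and 56.004 CPM in the CBD libraries. Sgk1 (ENSMUSG00000019970) is the serum and glucocorticoid regulated kinase, and CBD 1 lay above the other CBD libraries but below every sham library (log2 fold change -1.34, SE 0.22, DESeq2 adjusted p = 3.91e-05). Ddit4 stood at 64.4, 79.97 and 63.4 CPM in the sham libraries and at 46.3, 24.8 and 29.2 CPM in the CBD libraries. Ddit4, an inhibitor of mTOR signalling induced by stress hormones and low oxygen, showed the same placing of CBD 1 (log2 fold change -1.05, SE 0.21). Fkbp5 stood at 67.9, 90.8 and 59.1 CPM in the sham libraries and at 44.3, 50.1 and 45.98 CPM in the CBD libraries. Fkbp5, the co-chaperone that dampens the glucocorticoid receptor, had separate groups (log2 fold change -0.63, SE 0.16, DESeq2 adjusted p = 0.0259).

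The summed level of the glucocorticoid list was 1178, 1368 and 1219 CPM in the sham libraries, 896, 769 and 735 in CBD and 806, 900.4 and 825 in SNL. The 3 members that were higher by any size were Pdk4, Tgm2 and Lcn2, with log2 fold changes of 0.056, 0.074 and 1.75, and Lcn2 had an SE of 1.19 on levels of 2.27, 2.22 and 0.463 CPM in CBD; these were picked out after their values were seen. The median was -0.54 without CBD 1, and edgeR then called 3 members lower, Sgk1, Ddit4 and Arl4d, in a fit that called 0.0816% of genes lower. With the GC and length offsets the median was -0.49, and 13 members had an unadjusted p under 0.05 on the lower side (4.49% of all genes). Against the same sham libraries the SNL median was -0.54.

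Chaperones of the endoplasmic reticulum were higher in CBD. The endoplasmic reticulum stress list holds targets of the unfolded protein response, through which cells make more folding helpers when proteins misfold there. Of 22 members tested, 20 were higher and 2 lower, and the median log2 fold change was 0.26. 12 had an unadjusted edgeR p under 0.05 on the higher side (7.41% of all genes) and 0 on the lower side, 15 had all CBD libraries above all sham libraries (10.6% of all genes), and DESeq2 called 5 higher (0.929%) and 0 lower (2.19%). Hspa5 stood at 207, 191 and 235 CPM in the sham libraries and at 325, 336 and 338 CPM in the CBD libraries. Hspa5 (ENSMUSG00000026864) encodes BiP, the main chaperone of this compartment, and its CBD libraries were level with each other and well above sham (log2 fold change 0.66, SE 0.12, DESeq2 adjusted p = 0.000516). Hsp90b1 stood at 279, 288 and 342 CPM in the sham libraries and at 424, 446 and 442 CPM in the CBD libraries. Hsp90b1, which encodes the chaperone Grp94, had the same layout (log2 fold change 0.53, SE 0.11). Pdia6 stood at 89.2, 90.7 and 90.6 CPM in the sham libraries and at 112, 125 and 126 CPM in the CBD libraries. Pdia6 and Pdia3 are disulfide isomerases, and Pdia6 hardly varied among the sham libraries (log2 fold change 0.42, SE 0.10). Pdia3 stood at 136, 159.8 and 168 CPM in the sham libraries and at 197, 222 and 229 CPM in the CBD libraries (log2 fold change 0.48, SE 0.12).

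Promoters of several of these genes are shown because some members of the list hold a known sequence. RefSeq promoter windows (mouse build GRCm38.p6, searched over the 250 bases before each start on both strands) were at hand for 20 of the 22 genes. The endoplasmic reticulum stress element, searched as CCAAT, 9 bases of any kind and CCACG, was present in 7 of those 20 windows (35.0%), against 37 of 32851 windows in all (0.113%). The 7 genes were Calr, Canx, Creld2, Dnajc3, Hsp90b1, Hspa5 and Pdia6. Its first part is the CCAAT box, itself common in promoters. A match is a description of these letters and not a shown binding site. The list was drawn up from known targets of the unfolded protein response, so this share is no result of these libraries. Below, the element is in capitals, read 5′ to 3′ along the gene, and where it lies on the opposite strand its reverse complement is capitalised. Hspa5 is at chr2:34771970-34772089 (plus strand), Hsp90b1 at chr10:86705533-86705656 (minus strand, with an element on each strand), Pdia6 at chr12:17266469-17266588 and Dnajc3 at chr14:118937812-118937931 (both plus strand).
Hspa5: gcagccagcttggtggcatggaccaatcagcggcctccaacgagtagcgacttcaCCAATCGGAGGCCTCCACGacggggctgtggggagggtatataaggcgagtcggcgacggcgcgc
Hsp90b1: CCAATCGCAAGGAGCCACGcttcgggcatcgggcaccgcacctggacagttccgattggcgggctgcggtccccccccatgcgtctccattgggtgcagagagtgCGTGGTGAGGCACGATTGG
Pdia6: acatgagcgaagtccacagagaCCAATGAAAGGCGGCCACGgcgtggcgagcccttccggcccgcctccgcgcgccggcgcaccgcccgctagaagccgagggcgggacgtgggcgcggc
Dnajc3: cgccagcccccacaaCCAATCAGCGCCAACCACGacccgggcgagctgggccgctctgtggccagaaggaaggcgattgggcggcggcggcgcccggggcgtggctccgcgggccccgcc

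Members with the element differed in the size of their values. Dnajc3, a co-chaperone that also restrains the kinase PERK, stood at 50.3, 56.1 and 63.6 CPM in sham and 72.7, 70.2 and 76.3 in CBD (log2 fold change 0.37, SE 0.13), whereas Creld2 stood at 9.99, 10.6 and 12.8 and 12.1, 11.7 and 10.8 CPM (log2 fold change 0.049, SE 0.14), its groups overlapping. Both were picked for their promoters. The 2 members that were lower were Atf4, a transcription factor of the stress response, with a log2 fold change of -0.052 (SE 0.11), and Herpud1, which helps remove misfolded proteins, with one of -0.23 (SE 0.16), both named after their values were seen. The list median was 0.25 without CBD 1, and with the GC and length offsets it was 0.33, with 11 members at an unadjusted p under 0.05 on the higher side, where 2.98% of all genes were. In SNL the median over the same sham libraries was 0.27.

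For the glucocorticoid list, 20 of 24 genes had promoter windows, 31 windows in all. The palindromic glucocorticoid response element, searched as AGAACA, 3 bases of any kind and TGTTCT, lay in 1 of them, that of Sgk1, and in 3 of all 32851 windows (0.00913%). The cyclic AMP response element TGACGTCA, which binds CREB, lay in 3 of the 31 windows (9.68%), among them that of Arl4d, and in 2 of 25 windows of the immediate early list (8.0%), those of Btg2 and Maff, against 508 of all windows (1.55%). The windows of Sgk1 and Arl4d are shown because these genes had the smallest p of the list. The element is in capitals, Sgk1 is at chr10:21993701-21993820 and Arl4d at chr11:101665421-101665540, both on the plus strand.
Sgk1: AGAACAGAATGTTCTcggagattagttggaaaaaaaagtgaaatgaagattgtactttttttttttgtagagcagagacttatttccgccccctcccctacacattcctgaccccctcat
Arl4d: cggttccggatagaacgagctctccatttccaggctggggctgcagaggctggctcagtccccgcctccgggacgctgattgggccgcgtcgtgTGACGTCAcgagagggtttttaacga

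Heat shock proteins of the cytosol and mitochondria divided. Of 18 members 12 were higher and 6 lower, with a median of 0.14, and 6 higher and 2 lower had an unadjusted p under 0.05 (7.41% and 8.87% of all genes). Dnaja1, a co-chaperone of constitutive Hsp70, stood at 222, 246 and 272 CPM in sham and at 298, 333 and 358 in CBD, all CBD libraries above all sham libraries, and was the 1 member that DESeq2 called, where it called 0.929% of all genes higher (log2 fold change 0.42, SE 0.12, adjusted p = 0.0371). Stip1, which links Hsp70 to Hsp90, stood at 136, 136 and 178 and 189.9, 194 and 189 CPM (log2 fold change 0.35, SE 0.12). Hspa1a, the inducible Hsp70, went the other way, at 22.9, 15.1 and 13.4 CPM in sham and 11.9, 9.805 and 11.1 in CBD (log2 fold change -0.65, SE 0.23). Hspa1a has a near-identical neighbour, Hspa1b, so the reads of the pair may be shared.

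Immediate early genes, which neurons switch on within minutes of firing, were lower in CBD. Of 22 members tested, 21 were lower and 1 higher, and the median log2 fold change was -0.44. 10 had an unadjusted edgeR p under 0.05 on the lower side (8.87% of all genes), 9 had separate groups (11.1%), and DESeq2 called 4 lower (2.19%). Junb stood at 32.7, 35.1 and 22.5 CPM in the sham libraries and at 14.3, 16.9 and 18.01 CPM in the CBD libraries. Junb, a subunit of the AP-1 transcription factor, had every CBD library below every sham library (log2 fold change -0.87, SE 0.17, DESeq2 adjusted p = 0.00323). Egr4 stood at 17.2, 15.5 and 7.902 CPM in the sham libraries and at 3.898, 5.73 and 6.14 CPM in the CBD libraries. Egr4, a zinc finger factor, spread in sham, where sham 3 lay well under the other sham libraries and just above the highest CBD library (log2 fold change -1.36, SE 0.28). Jun stood at 107, 119 and 79.5 CPM in the sham libraries and at 65.3, 63.99 and 73.1 CPM in the CBD libraries. Jun and Jund are further AP-1 subunits, with separate groups in both (log2 fold change -0.59, SE 0.17). Jund stood at 134, 103 and 96.9 CPM in the sham libraries and at 89.98, 62.3 and 56.5 CPM in the CBD libraries (log2 fold change -0.68, SE 0.19). Fos, the best known member, stood at 7.95, 4.904 and 7.39 CPM in sham and 7.69, 3.97 and 4.81 in CBD, with overlapping groups (log2 fold change -0.30, SE 0.41).

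The list was lower by a similar margin without CBD 1 (median -0.40). With the GC and length offsets the median was -0.32, and 5 members had an unadjusted p under 0.05 on the lower side (4.49% of all genes). Sham 3 was the lowest sham library in the summed level, 933, 862 and 643 CPM in sham 1, 2 and 3 against 492, 607 and 672 in the CBD libraries, and leaving it out gave a median of -0.64. In SNL against the same sham libraries the median was -0.30.

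Scaffold and signalling proteins of the postsynaptic density were lower in CBD, against sham libraries that spread widely. Of 22 members, 19 were lower and 3 higher (median -0.53), 9 lower and 1 higher had an unadjusted p under 0.05 (8.87% and 7.41% of all genes), and DESeq2 called 4 lower (2.19%). Homer3 stood at 56.2, 76.3 and 37.5 CPM in the sham libraries and at 23.01, 28.2 and 22.2 CPM in the CBD libraries. Homer3 tethers metabotropic glutamate receptors, and its groups were apart (log2 fold change -1.21, SE 0.26, DESeq2 adjusted p = 0.00236). Baiap2 stood at 263, 274 and 154 CPM in the sham libraries and at 97.6, 145 and 149 CPM in the CBD libraries (log2 fold change -0.82, SE 0.25). Agap2 stood at 1629.5, 1417 and 853 CPM in the sham libraries and at 552, 825 and 832 CPM in the CBD libraries (log2 fold change -0.82, SE 0.25). Both proteins act in spines, on actin and on kinase signalling, and both had sham 3 only just above CBD 3.

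The summed level of the scaffold list was 13268, 13442 and 8430.1 CPM in the sham libraries and 6022, 9276 and 9746 CPM in the CBD libraries, so that sham 3 and CBD 1 were the lowest of their groups and sham 3 lay under CBD 2 and CBD 3. Its members were rich in GC, with a median of 56.5%. With the GC and length offsets the median log2 fold change was -0.20, and 1 member had an unadjusted p under 0.05 on the lower side, where 4.49% of all genes did. The median was -0.30 without CBD 1, and without sham 1 it was -0.33. In SNL it was -0.46 over the same sham libraries. Proteins of transmitter release gave no such count: 10 of 21 were higher and 11 lower, with a median of -0.0032.

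Glutamate receptors and their partners were divided in direction, 13 of 26 higher and 13 lower (median -0.012). At an unadjusted p under 0.05, 2 were higher and 5 lower (7.41% and 8.87% of all genes), and DESeq2 called 2 lower (2.19%). The 3 with the smallest p were lower. Cacng8 stood at 116, 114 and 69.7 CPM in the sham libraries and at 40.3, 52.1 and 51.1 CPM in the CBD libraries. Cacng8, an auxiliary subunit of AMPA receptors in the hippocampus, had separate groups (log2 fold change -1.06, SE 0.20, DESeq2 adjusted p = 0.000862). Grik5 stood at 302, 257 and 186 CPM in the sham libraries and at 149, 151 and 153 CPM in the CBD libraries. Grik5 is a kainate receptor subunit, with CBD libraries level and sham libraries spread (log2 fold change -0.72, SE 0.16, DESeq2 adjusted p = 0.00674). Grin1 stood at 681, 605 and 491 CPM in the sham libraries and at 385, 455 and 449.7 CPM in the CBD libraries. Grin1, the obligatory NMDA receptor subunit, was also separate (log2 fold change -0.46, SE 0.14), and DESeq2 did not call it (adjusted p = 0.0538).

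Genes of GABA receptors and GABA synthesis leaned higher, 14 of 18, with a median of 0.23, 3 with an unadjusted p under 0.05 on the higher side (7.41% of all genes) and 0 on the lower side (8.87%), and no DESeq2 call. Gabrg3, a receptor subunit, stood at 16.3, 16.3 and 18.8 CPM in sham and at 33.6, 22.8 and 24.3 in CBD (log2 fold change 0.65, SE 0.20). Gad2, which makes GABA, stood at 94.5, 95.7 and 215 and 338, 168 and 156 CPM, with overlapping groups (log2 fold change 0.71, SE 0.37). Its highest value was in CBD 1, the CBD library with hypothalamic transcripts, and the part of those transcripts in this value was not tested. The list median was 0.22 without CBD 1, 0.14 without sham 1 and 0.14 with the GC and length offsets.

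Ion channels showed single genes rather than a list. Voltage-gated sodium, potassium and HCN channel genes had 15 of 30 members higher and 15 lower. At an unadjusted p under 0.05, 3 were higher and 5 lower (7.41% and 8.87% of all genes). Kcnn1 stood at 21.2, 18.9 and 17.5 CPM in the sham libraries and at 12.9, 13.8 and 13.03 CPM in the CBD libraries. Kcnn1, which this list also holds, is a small-conductance potassium channel activated by calcium, with separate and tight groups. It was the 1 member that DESeq2 called, where that tool called 2.19% of all genes lower (log2 fold change -0.53, SE 0.12, adjusted p = 0.023). Among voltage-gated calcium channel genes 12 of 15 were lower (median -0.091). At an unadjusted p under 0.05, 1 was higher and 3 were lower (7.41% and 8.87% of all genes). Cacna1h stood at 188, 190.5 and 114 CPM in the sham libraries and at 71.1, 111 and 102 CPM in the CBD libraries. Cacna1h forms the T-type channel Cav3.2, known for its part in pain. It was the 1 member that DESeq2 called, where that tool called 2.19% of all genes lower (log2 fold change -0.79, SE 0.22, adjusted p = 0.0296). Its SNL libraries stood at 71.1, 83.8 and 91.3 CPM.

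The endocannabinoid system, the lipid messengers and receptors that cannabis compounds act on, had no member called by edgeR or DESeq2. Of 12 members tested among 13 listed, 4 were higher and 8 lower, with a median of -0.16 (-0.26 without CBD 3). Cnr1, the CB1 receptor, stood at 117, 138 and 98.3 CPM in sham and at 123, 126 and 142 in CBD, overlapping (log2 fold change 0.15, SE 0.23). Mgll, which degrades 2-arachidonoylglycerol, stood at 209, 191 and 132 and 104, 121 and 137 CPM, with CBD 3 above sham 3 (log2 fold change -0.56, SE 0.18), and Faah, which degrades anandamide, stood at 164, 186 and 112 and 74.2, 119 and 136 CPM (log2 fold change -0.49, SE 0.25), with overlapping groups in both. Fabp7, a fatty acid carrier of astrocytes and progenitors, had all CBD libraries above all sham libraries, 17.8, 22.1 and 22.1 CPM in sham and 30.1, 41.4 and 28.96 in CBD (log2 fold change 0.70, SE 0.24).

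Proposed targets of cannabidiol were divided, 9 of 17 tested higher and 8 lower, with a median of 0.033, and neither tool called any. Trpv1, the capsaicin receptor, was not tested: it had 2, 2 and 2 counts in the sham libraries and 4, 2 and 2 in the CBD libraries, so a difference was not detectable at this depth. Htr1a, the serotonin 1A receptor, stood at 30.9, 31.04 and 25.3 CPM in sham and 23.01, 29.2 and 26.1 in CBD, overlapping (log2 fold change -0.16, SE 0.20). Adora1, the adenosine A1 receptor, stood at 285, 307 and 227 and 167, 226 and 245 CPM, with CBD 3 above sham 3 (log2 fold change -0.36, SE 0.16). Glra3, a glycine receptor subunit, had a log2 fold change of 1.31 (SE 0.59) on levels of 3.77, 2.48 and 13.1 and 25.1, 13.1 and 9.61 CPM, with sham 3 as high as CBD 2. Of 21 genes of monoamine receptors and breakdown, 12 were higher and 9 lower, with a median of 0.12. At an unadjusted p under 0.05, 2 were higher (7.41% of all genes) and 4 lower (8.87%). Drd1 (log2 fold change 0.82, SE 0.25) and Maob (0.33, SE 0.13) had all CBD libraries above all sham libraries. DESeq2 called 2 members lower (2.19%), both adrenergic receptors, and 0 higher (0.929%). Adra1d stood at 50.2, 50.5 and 26.5 CPM in the sham libraries and at 14.5, 21.7 and 20.1 CPM in the CBD libraries (log2 fold change -1.17, SE 0.24, DESeq2 adjusted p = 0.00236). Adra2c stood at 20.7, 20.8 and 13.7 CPM in the sham libraries and at 10.4, 11.1 and 10.1 CPM in the CBD libraries (log2 fold change -0.80, SE 0.17, DESeq2 adjusted p = 0.0118). Both adrenergic receptors had separate groups, with sham 3 lowest in sham.

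Bdnf, the growth factor most often tied to plasticity and mood, stood at 30.1, 43.02 and 26.5 CPM in sham and 18.6, 29.6 and 34.9 CPM in CBD, overlapping (log2 fold change -0.26, SE 0.25). Of the 17 genes of neurotrophin and CREB signalling 11 were lower (median -0.14, and -0.032 without sham 2, -0.046 without CBD 1, -0.24 without sham 3 and -0.23 without CBD 3), and DESeq2 called none. Crtc1, a CREB coactivator, stood at 333, 319.5 and 213 and 159, 210.3 and 220.3 CPM (log2 fold change -0.55, SE 0.19), while Creb1 itself was higher in every CBD library, 37.02, 47.4 and 49.6 against 54.6, 49.8 and 59.7 CPM (log2 fold change 0.29, SE 0.12).

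Transcripts made inside mitochondria were higher in CBD 2 and CBD 3 and at sham level in CBD 1. All 13 members had a positive log2 fold change, with a median of 0.57, 8 had an unadjusted p under 0.05 (7.41% of all genes higher), DESeq2 called 3 (0.929%), and in 0 of 13 did the groups separate (10.6%). Their share of all counts was 4.03% ± 0.72 in sham and 5.85% ± 1.16 in CBD (mean ± SD, n = 3 each), and an exact two-sided permutation test gave p = 0.2, where 0.1 is the smallest that 3 against 3 allows. mt-Atp6 stood at 262, 333 and 379 CPM in the sham libraries and at 314, 1038 and 825 CPM in the CBD libraries. For mt-Atp6, a subunit of ATP synthase, CBD 1 lay inside the sham range and the other CBD libraries far above it (log2 fold change 1.16, SE 0.34, DESeq2 adjusted p = 0.0217). mt-Nd6 stood at 352, 514 and 524 CPM in the sham libraries and at 519, 1079.5 and 994 CPM in the CBD libraries. mt-Nd6, a complex I subunit on the other DNA strand, had CBD 1 inside the sham range too (log2 fold change 0.90, SE 0.26). Without CBD 1 the list median was 0.76, 11 of 13 members had separate groups (19.4% of all genes), and edgeR called mt-Atp6 higher (0.0109% of all genes). CBD 1 was set apart partly by its levels of mitochondrial transcripts, so the values without it give no independent support. These transcripts are poor in GC, with a median of 37.1%, and with the GC and length offsets the list median was 0.26. All 13 were also higher in SNL over the same sham libraries, with a median of 0.42.

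Nuclear genes of the same machinery and of the ribosome leaned lower. Of 40 genes of oxidative phosphorylation 33 were lower (median -0.14), and of 40 cytosolic ribosomal protein genes 37 were lower (median -0.21). At an unadjusted p under 0.05, 4 and 6 of them were lower (8.87% of all genes). All CBD libraries lay below all sham libraries for 3 and 2 of them, shares under that of all genes (11.1%). DESeq2 called 1 and 0 of them lower (2.19%). Atp5d stood at 147, 162 and 134 CPM in the sham libraries and at 125, 83.4 and 76.04 CPM in the CBD libraries. Atp5d, a subunit of ATP synthase, had CBD 1 just below sham and CBD 2 and CBD 3 well below it (log2 fold change -0.64, SE 0.17, DESeq2 adjusted p = 0.0329). Rpl10a stood at 83.5, 113 and 80.04 CPM in the sham libraries and at 76.9, 51.1 and 51.7 CPM in the CBD libraries. Rpl10a, of the large ribosomal subunit, followed the same order (log2 fold change -0.62, SE 0.19). Ribosomal protein genes have many processed copies, so their counts are uncertain. The summed ribosomal level was 6105, 8470.1 and 6999 CPM in sham and 7242, 5955 and 5536 in CBD, with CBD 1 inside the sham range. The medians were -0.22 and -0.35 without CBD 1, and with the GC and length offsets -0.0039 and -0.15, in that order. Without sham 2 they were -0.053 and -0.07, without sham 1 -0.24 and -0.34, and without CBD 3 -0.09 and -0.12. In SNL over the same sham libraries they were 0.24 and 0.20, positive where those of CBD were negative.

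Interferon-induced genes, the antiviral programme that type I interferon switches on, divided the CBD libraries. The summed level of the list was 427, 387 and 523 CPM in sham 1, 2 and 3, 629, 181 and 190.5 CPM in CBD 1, 2 and 3 and 185, 235 and 186 CPM in the SNL libraries. CBD 1 lay above every sham library, and CBD 2 and CBD 3 lay far below them, at the level of SNL. Over the 3 CBD libraries the 22 members had a median log2 fold change of -0.26, with 17 lower and 5 higher, and 3 of those lower had an unadjusted p under 0.05 (8.87% of all genes), a share of the list near that of all genes. Ifi27 stood at 64.3, 72.996 and 59.96 CPM in the sham libraries and at 49.8, 30.8 and 29.5 CPM in the CBD libraries. Ifi27 was lower in all CBD libraries, CBD 1 included. It was the 1 member that DESeq2 called, where that tool called 2.19% of all genes lower (log2 fold change -0.84, SE 0.19, adjusted p = 0.0123). Ifi27l2a stood at 4.997, 6.32 and 5.96 CPM in the sham libraries and at 4.28, 0.361 and 0.2896 CPM in the CBD libraries. Ifi27l2a also had all CBD libraries below sham, CBD 1 closely (log2 fold change -1.80, SE 0.74). Lgals3bp stood at 84.04, 57.02 and 80.7 CPM in the sham libraries and at 67.6, 20.5 and 19.2 CPM in the CBD libraries, with CBD 1 inside the sham range (log2 fold change -1.05, SE 0.43).

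Without CBD 1 the interferon list was lower throughout. CBD 1 was set apart partly by its levels of these same genes, so the counts without it give no independent support. The median was -1.75, all 22 members were lower, 18 had an unadjusted p under 0.05 (10.7% of all genes), and 21 had CBD 2 and CBD 3 below all sham libraries (20.3% of all genes). In that fit edgeR called 6 members lower, Ifi27l2a, Irf7, Ifi27, Lgals3bp, Usp18 and Oasl2, among 15 genes called lower in all (0.0816%). Irf7, Usp18 and Oasl2 were picked out after their values were seen. Irf7 stood at 16.6, 13.5 and 20.1 CPM in the sham libraries and at 25.8, 2.53 and 2.32 CPM in the CBD libraries. Irf7, the transcription factor that amplifies the interferon response, was highest in CBD 1 and lowest in CBD 2 and CBD 3 among the 6 libraries. Usp18 stood at 5.97, 5.91 and 8.67 CPM in the sham libraries and at 14.2, 1.08 and 1.51 CPM in the CBD libraries. Usp18, which turns the interferon receptor off again, was placed alike, and so was the antiviral sensor-like gene Oasl2, at 18.1, 14.9 and 25.5 CPM in sham and 34.4, 5.52 and 6.66 CPM in CBD. Leaving out CBD 2 or CBD 3 in place of CBD 1 gave medians of 0.13 and 0.074, and leaving out sham 3 one of -0.079, so the direction over 3 libraries rests on which of them is counted. With SNL over the same sham libraries the median was -1.35.

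**Figure D4:**
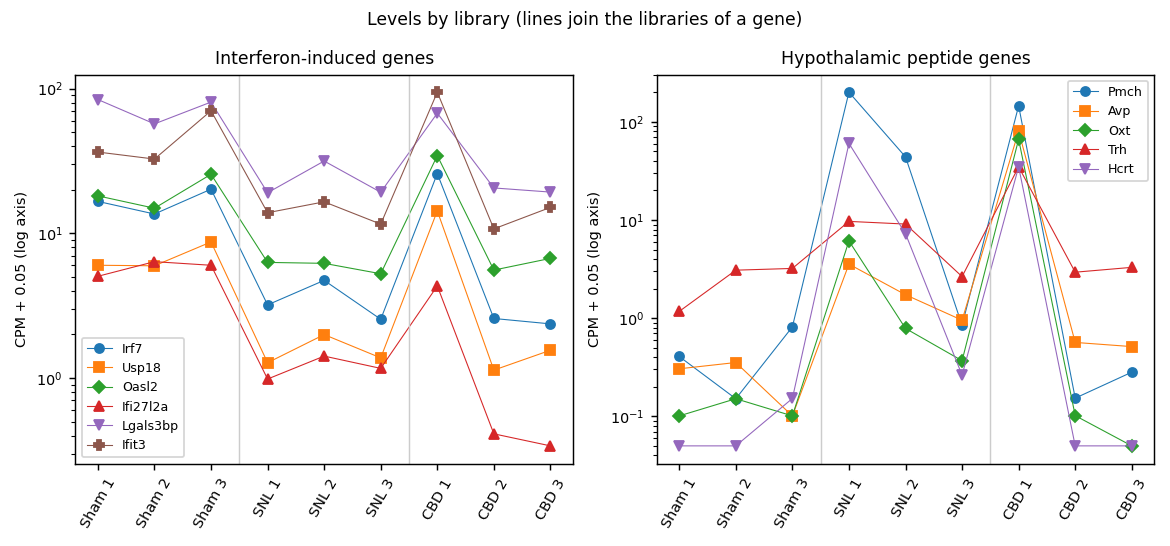
CPM plus 0.05 on a log axis in each of the 9 libraries for 6 interferon-induced genes (left) and 5 hypothalamic peptide genes (right), with lines joining the libraries of a gene. CBD 1 sits near or above the sham libraries on the left, at 25.8 CPM for Irf7 against 2.53 and 2.32 in CBD 2 and CBD 3, and far above them on the right, at 146 CPM for Pmch.

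Antigen presentation genes, which show peptides to T cells, were lower in all 16 members. The median log2 fold change was -0.32, and 3 members had an unadjusted p under 0.05 (8.87% of all genes lower). H2-D1 stood at 75.4, 100.4 and 83.8 CPM in the sham libraries and at 67.5, 56.4 and 46.3 CPM in the CBD libraries. H2-D1, a class I heavy chain, had CBD 1 nearest to sham. It was the 1 member that DESeq2 called, where that tool called 2.19% of all genes lower (log2 fold change -0.61, SE 0.16, adjusted p = 0.0322). H2-K1, a second class I heavy chain with close copies in the same cluster, stood at 58.9, 77.6 and 67.4 and 56.7, 42.6 and 34.2 CPM (log2 fold change -0.61, SE 0.19). Without CBD 1 the median was -0.71, without CBD 2, CBD 3 or sham 2 it was -0.21, -0.047 and -0.20, and with the GC and length offsets -0.19.

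Microglial markers leaned lower, 13 of 16 with a median of -0.23, 6 of them at an unadjusted p under 0.05 (8.87% of all genes), and no DESeq2 call. The genes with the smallest p were the homeostatic marker Tmem119, at 26.6, 29.6 and 23.9 CPM in sham and 22.8, 14.7 and 16.7 in CBD (log2 fold change -0.56, SE 0.17), and the complement genes C1qb and C1qa (log2 fold changes -0.62 and -0.55, SE 0.21 and 0.19). The list's summed level was 583, 670.0 and 541 CPM in sham and 548, 481 and 466 CPM in CBD, and its median was -0.14 without sham 2 and -0.15 without CBD 3. Aif1, the microglial marker Iba1, stood at 4.18, 6.93 and 4.49 CPM in sham and 6.497, 3.72 and 4.46 in CBD, overlapping, and its direction depended on the library left out (log2 fold change -0.088, SE 0.28). Cytokine and inflammasome genes were divided, 9 of 17 tested higher, with a median of 0.008. Gfap, the filament of reactive astrocytes, stood at 442, 454 and 342 CPM in sham and 340.0, 358 and 323 in CBD (log2 fold change -0.28, SE 0.15), and 16 astrocyte markers had a median of -0.034.

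Marker lists of several neighbouring tissues were higher in CBD. All 18 thalamus and habenula markers were higher, with a median log2 fold change of 0.54 (0.60 without CBD 1 and 0.35 without sham 2), 1 with an unadjusted p under 0.05 (7.41% of all genes), and their summed level was 841, 604 and 880.3 CPM in sham and 1195, 942 and 1271 CPM in CBD. Tcf7l2, which marks the thalamus, stood at 53.5, 30.5 and 66.7 and 70.4, 74.2 and 93.2 CPM (log2 fold change 0.66, SE 0.29). All 18 thalamus and habenula markers were also higher in SNL over the same sham libraries, with a median of 1.08. Hypothalamus markers had a median of 1.99, and of -0.39 without CBD 1, so their direction over the group came from that library. Choroid plexus and ependymal markers had a median of 0.57, with summed levels of 1993, 375 and 1536 CPM in sham and 1727, 2853 and 2141 in CBD, and the median was 0.14 without sham 2, 1.07 without sham 1 and 0.31 without CBD 2. Of these 16 markers 13 were higher and 3 lower, 1 with an unadjusted p under 0.05 on the higher side (7.41% of all genes). The lower members included the ependymal markers Foxj1 and Tmem212 (log2 fold changes -0.38 and -0.40, SE 0.25 and 0.30), with overlapping groups. The part of such tissue in the other differences was not tested.

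Dentate and CA1 markers leaned lower, while CA3 and mossy cell markers were nearly even in direction. Of 15 dentate granule cell markers 12 were lower (median -0.17), and DESeq2 called 2 lower (2.19% of all genes). C1ql2 stood at 82.5, 109 and 58.7 CPM in the sham libraries and at 23.9, 47.3 and 42.6 CPM in the CBD libraries. C1ql2, a synaptic organiser at mossy fibres, had separate groups (log2 fold change -1.14, SE 0.29, DESeq2 adjusted p = 0.0137). Plk5, a polo-like kinase without a full kinase domain, stood at 24.7, 26.1 and 21.8 and 10.1, 15.6 and 14.7 CPM (log2 fold change -0.85, SE 0.20, DESeq2 adjusted p = 0.016). Calb1, a further dentate marker, was higher with overlapping groups (log2 fold change 0.33, SE 0.13). CA1 markers had a median of -0.20, with Fibcd1 at 148, 132 and 88.8 and 37.2, 74.8 and 83.9 CPM (log2 fold change -0.91, SE 0.31). Of 14 CA3 and mossy cell markers 6 were higher and 8 lower, with a median of -0.09. DESeq2 called 1 of them, Elavl4, higher (0.929% of all genes) and 0 lower. Interneuron markers had a median of -0.0067. Without CBD 1 the dentate median was -0.082 and the CA1 median -0.041. The dentate median ran from -0.48 without CBD 3 to -0.023 without sham 2, and the CA1 median from -0.37 without sham 3 to 0.022 without sham 1.

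Vessel markers leaned higher, 13 of 18, with a median of 0.21 (0.12 without sham 2, 0.13 without CBD 3), 5 at an unadjusted p under 0.05 (7.41% of all genes) and 0 DESeq2 calls. Flt1, a receptor of vascular endothelial growth factor, stood at 74.1, 62.2 and 72.3 CPM in sham and 88.8, 97.02 and 106 in CBD (log2 fold change 0.48, SE 0.15), and Rgs5, a pericyte marker, at 95.9, 89.1 and 114 and 123, 135 and 136 CPM (log2 fold change 0.40, SE 0.12), all CBD libraries above all sham libraries in both. Over the same sham libraries the SNL median of the vessel markers was 0.48, with 17 of 18 higher. Myelin markers had a median of -0.16 (-0.054 without sham 3), and 0.34 in SNL over the same sham libraries. The plot of all 42 lists sets these medians side by side, with the values that leave out CBD 1 and those under the GC and length offsets.

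**Figure D5:**
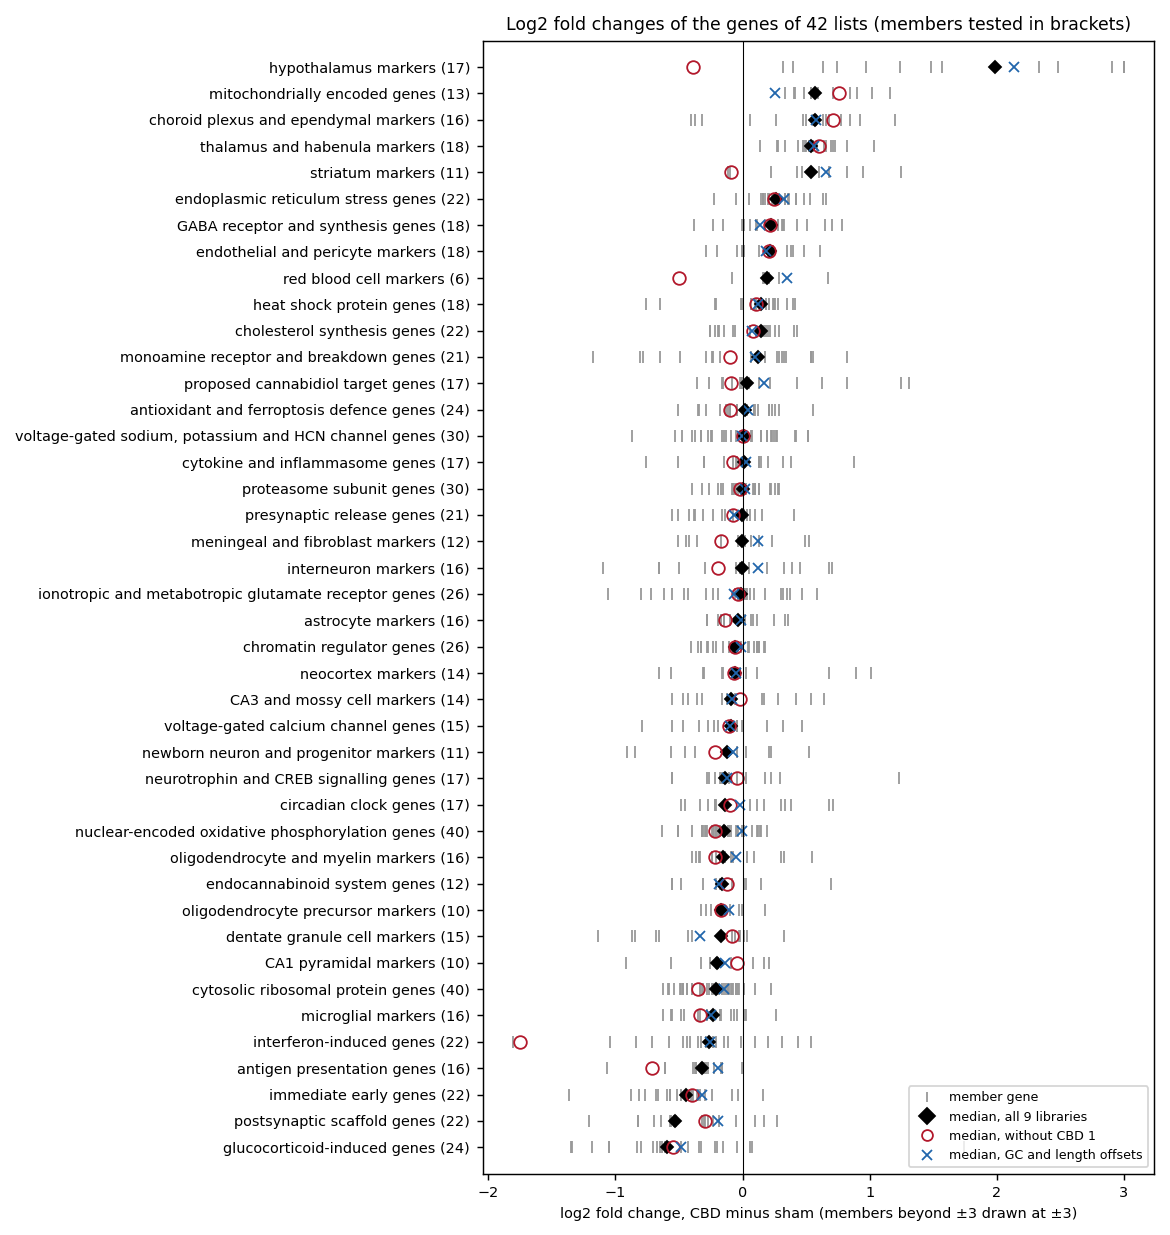
Each row is 1 of the 42 lists (number of members tested in brackets), with the log2 fold change of CBD over sham on the x axis, grey ticks for members, a black diamond for the median over all libraries, a red circle for the median without CBD 1 and a blue cross for the median with GC and length offsets. The 3 marks lie close together for the glucocorticoid and endoplasmic reticulum lists and far apart for the interferon list (-0.26 against -1.75 without CBD 1).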

How the data were processed

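The authors deposited expected counts per gene for 9 libraries, and the submitters' processing notes name RSEM and the mouse build GRCm39. For the aligner, annotation and strand setting: not given in the sources used here. Per the labels' protocols, TRIzol was used to extract the RNA and a SMARTER mRNA kit for the libraries. Of 57010 genes, 1606 had no symbol and 24143 had a total of 0. Expected counts were rounded to whole numbers. Genes were kept by filterByExpr, scaled by TMM and tested with edgeR 4.0.16 (R 4.3.3), quasi-likelihood F test, 1 factor of 3 groups over all 9 libraries, 6 residual degrees of freedom, Benjamini-Hochberg adjustment over 17967 genes, threshold 0.05. The common biological coefficient of variation was 0.192. Fold changes are log2, and the SE is the fold change over the square root of F. CPM use TMM-adjusted library sizes.

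Libraries were grouped by their labels. Library totals ran from 16972620 to 20470546, and SE values carry the spread between libraries. The members and lists were chosen with earlier results of these data known, so a list is described by counts and its median and gives no independent support. Of 806 listed symbols, 805 matched the table and 774 were tested. Named genes were the 10 smallest p in each direction (mean of at least 1 CPM, not a clone or pseudogene name), the 5 largest fold changes in each direction among DESeq2 calls, up to 4 members of the smallest p in a described list, and the anchors Cnr1, Faah, Trpv1, Htr1a, Bdnf, Gfap, Aif1, Fos, Sgk1 and Fkbp5; others are said to be chosen later. Alternatives were DESeq2 1.42.0, limma 3.58.1 voom with sample weights, other scalings and filters, a robust prior, fewer libraries, the replicate block, and per-library offsets from splines in GC content and length (mgcv 1.9.3; transcripts of GENCODE for an older build, used for these properties only). The 2 DESeq2 fits with libraries left out were chosen after seeing the data. The edgeR code was tested on simulated data. No gene set test was run, and no sample was left without a group. Promoter windows are RefSeq's for GRCm38.p6, and no other coordinates are given.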

Additional observations from a re-analysis of the deposited data

How the results depend on the processing

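The call of 0 genes by edgeR's quasi-likelihood test held with DESeq2 size factors, total-count scaling, a filter of 1 CPM in 3 libraries, a robust prior and the GC and length offsets. It gave 56 genes with no filter on low counts, 1 with only the CBD and sham libraries and 20 without the 3 libraries that held hypothalamic transcripts (CBD 1, SNL 1 and SNL 2). DESeq2 called 372, limma voom 1051, and DESeq2 730 without CBD 1 and 582 without those 3 libraries. Leaving out 1 library at a time gave 0 to 17 genes, 17 without CBD 1, 1 without SNL 2 and 0 otherwise. DESeq2 tested fewer genes, and without a filter more were tested; further causes of these differences were not tested. Some weak log2 fold changes turned over. With the GC and length offsets they were 0.12 for Atf4, -0.069 for Pdk4, 0.013 for Aif1 and -0.016 for Cnr1. Pmch had -0.13 with voom, -1.26 without the 3 libraries and -1.28 by DESeq2 without CBD 1. Leaving out 1 library at a time gave -1.28 to 7.70 for Pmch, -1.68 to 0.075 for Oasl2, -2.41 to 0.20 for Usp18, -0.024 to 0.16 for Creld2 and -0.35 to 0.17 for Aif1.

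Under the alternatives 54 list medians moved by more than the spread between libraries and 870 did not. That spread was each list's own, the pooled SD of its mean log2 CPM per library in sham and CBD. For the interferon list it was 0.96, so its change of sign without CBD 2 counts as not moved. A median among the 870 is therefore not shown to be stable. The interferon median ran from -1.75 without CBD 1 to 0.13 without CBD 2, and that of the scaffold list was -0.20 with offsets.

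The replicate numbers showed no evident pairing: deviations of same-numbered CBD and sham libraries correlated at -0.145, 0.0455 and -0.243, and the samples did not each correlate best with their own number. With 3 libraries a group this cannot show whether same-numbered samples were handled together. With the replicate block 0 genes were called, the smallest adjusted p was 0.353, and 2306 genes had an unadjusted p under 0.05.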

Other observations

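Clock genes and stress-defence genes are given here, apart from the lists above. Circadian clock genes were divided in direction, 8 of 17 higher and 9 lower. At an unadjusted p under 0.05, 3 were higher and 5 lower (7.41% and 8.87% of all genes). All CBD libraries lay above all sham libraries for 4 members and below them for 6 (10.6% and 11.1% of all genes). Rorb was among those above (log2 fold change 0.68), and Per2, Per3 and Dbp were among those below (-0.48, -0.34 and -0.45). Per2, a repressor of the clock that glucocorticoids and neuronal activity also induce, stood at 48.6, 42.3 and 37.1 CPM in the sham libraries and at 30.8, 31.2 and 29.5 CPM in the CBD libraries, separate groups that DESeq2 called lower (log2 fold change -0.48, SE 0.13, adjusted p = 0.0462). It was the 1 clock gene that DESeq2 called, where that tool called 2.19% of all genes lower. Slc7a11, the cystine importer that feeds glutathione synthesis, stood at 41.4, 40.5 and 42.4 CPM in sham and 66.8, 54.8 and 60.8 in CBD, all CBD libraries above all sham libraries, and was called higher by DESeq2 (log2 fold change 0.55, SE 0.13, adjusted p = 0.0196). It was the 1 member of its list that DESeq2 called, where that tool called 0.929% of all genes higher. The other antioxidant and ferroptosis defence genes were divided, with a list median of 0.021. Dcx, a marker of immature neurons, stood at 21.9, 18.9 and 20.5 and 29.3, 27.9 and 30.98 CPM, above sham in every CBD library (log2 fold change 0.52, SE 0.16), while its list of newborn neuron and progenitor markers had 4 of 11 higher and 7 lower, with a median of -0.12. Elavl4, an RNA-binding protein of neurons, is the called member of the CA3 and mossy cell list. It stood at 36.2, 30.7 and 51.3 and 67.7, 58.6 and 57.9 CPM (log2 fold change 0.64, SE 0.17, DESeq2 adjusted p = 0.0362).

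A handful of features were nearly on or off in single libraries. They were picked out after their values were seen, and all are pseudogenes, clone-named genes or members of copied families, whose reads may be shared among copies. Pgam1-ps2 stood at 30.3, 37.2 and 29.6 CPM in sham 1, 2 and 3, at 22.1, 0 and 0 CPM in CBD 1, 2 and 3 and at 15.3, 16.8 and 10.2 CPM in SNL 1, 2 and 3. Gm29216 stood at 352, 329 and 387 CPM in sham, 312, 18.5 and 10.1 in CBD and 55.6, 309.5 and 19.1 in SNL, high in CBD 1 and SNL 2 and low in the other treated libraries. Fam205a4 stood at 0.561, 0.354 and 0.612 CPM in sham, 15.3, 12.02 and 6.197 in CBD and 0.409, 15.1 and 0.319 in SNL, and was the 1 gene that edgeR's quasi-likelihood test called when the fit held only the CBD and sham libraries (adjusted p = 0.0445). Amd2 stood at 0.204, 0.556 and 0.357 CPM in sham, 0.433, 11.5 and 11.4 in CBD and 11.3, 0 and 0.8499 in SNL. Pcsk1n, a neuroendocrine protein gene with no such copies named here, stood at 371, 349 and 322 CPM in sham and 356, 173 and 159 CPM in CBD, with CBD 1 inside the sham range and the other CBD libraries under it.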
